A study of Homo sapiens with 18 samples.

Results

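ACTB, ACTG1, TBP, HPRT1, PPIA, GUSB, TFRC and YWHAZ are 8 genes often used to normalize expression measurements, and they are described here across 18 RNA-seq libraries of the lung adenocarcinoma cell lines H1975 and HCC827. They were taken from a list of symbols, with no threshold on their values, and were matched through their Ensembl identifiers to GENCODE release 44. All 8 were listed in every file, among 58444 genes shared by all 18 files. H1975 (labelled NCI-H1975) and HCC827 are established lines that carry activating EGFR mutations, and no treatment separated the groups. Each line gave 3 RNA samples from cells grown independently to near confluence. Each RNA sample was read on 3 platforms, which makes 6 groups of 3 libraries: Illumina short reads from 3.75 ng of mRNA, Oxford Nanopore (ONT) PCR-cDNA long reads from 1.5 ng of mRNA, and PacBio Iso-Seq long reads from total RNA with size selection near 2 kb. RNA input, library chemistry, PCR and sequencer change together between platforms and cannot be told apart.

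A reference gene serves as a denominator: the level of any other gene is divided by it, so a difference in the reference passes unseen into every other gene. The 8 genes come from unrelated parts of cell biology, which is why they are often combined. ACTB and ACTG1 encode the cytoplasmic beta and gamma actins, the subunits of actin filaments. PPIA encodes cyclophilin A, a peptidyl-prolyl isomerase that binds cyclosporin, and YWHAZ encodes a 14-3-3 adaptor protein that binds phosphorylated partners. HPRT1 is a purine salvage enzyme, GUSB is lysosomal beta-glucuronidase, TFRC is the transferrin receptor that brings iron into the cell, and TBP is the TATA-binding protein of the basal transcription machinery.

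Several of these genes have copies or partial copies elsewhere in the genome. PPIA has 89 pseudogenes that carry its name, mostly retrocopies of its mRNA. The first 90 coding bases of PPIA are shown with the same stretch of the 5 copies with the most ONT counts, because reads of such similar sequences are hard to place. Capitals mark the bases that differ from PPIA. All are written 5′ to 3′ in the sense of the PPIA mRNA, from the GRCh38 genome and the GENCODE transcript.
PPIA: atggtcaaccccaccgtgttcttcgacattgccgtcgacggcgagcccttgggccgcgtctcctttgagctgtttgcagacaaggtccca
PPIAP22: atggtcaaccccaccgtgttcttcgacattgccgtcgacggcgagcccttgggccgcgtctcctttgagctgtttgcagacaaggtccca
PPIAP29: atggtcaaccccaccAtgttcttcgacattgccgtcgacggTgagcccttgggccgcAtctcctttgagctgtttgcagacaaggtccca
PPIAP11: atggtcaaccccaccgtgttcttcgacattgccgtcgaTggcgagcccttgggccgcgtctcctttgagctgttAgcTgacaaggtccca
PPIAP31: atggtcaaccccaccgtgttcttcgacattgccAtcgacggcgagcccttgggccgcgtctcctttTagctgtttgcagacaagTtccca
PPIAP6: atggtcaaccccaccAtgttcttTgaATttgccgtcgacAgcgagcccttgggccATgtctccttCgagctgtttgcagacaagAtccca
PPIAP22 had 0 differences from PPIA in this stretch, PPIAP29, PPIAP11 and PPIAP31 had 3 each, and PPIAP6 had 9.

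The cytoplasmic actins are also close relatives of each other. Their coding sequences have the same length, 1128 nt, and match at 1029 bases (91.2%). The first 90 coding bases follow, with capitals where ACTG1 differs from ACTB.
ACTB: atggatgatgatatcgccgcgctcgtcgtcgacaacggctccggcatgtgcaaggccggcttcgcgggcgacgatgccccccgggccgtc
ACTG1: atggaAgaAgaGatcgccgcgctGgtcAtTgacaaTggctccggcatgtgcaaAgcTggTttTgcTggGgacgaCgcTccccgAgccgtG
These stretches differ at 17 bases, and over the whole coding sequence the longest run without a difference was 59 nt, so a 75 nt read that lies wholly in the coding part covers at least 1 difference.

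Coordinates are those of the GRCh38 build in GENCODE. ACTB lies at chromosome 7, 5526409 to 5563902, minus strand, ACTG1 at chromosome 17, 81509413 to 81523847, minus strand, and TBP at chromosome 6, 170554302 to 170572870, plus strand. HPRT1 lies at chromosome X, 134460165 to 134520513, plus strand, PPIA at chromosome 7, 44796680 to 44824564, plus strand, and GUSB at chromosome 7, 65960684 to 65982215, minus strand. TFRC lies at chromosome 3, 196012511 to 196082153, minus strand, and YWHAZ at chromosome 8, 100916523 to 100953388, minus strand. All are protein coding. Exons of ACTG1 and TFRC overlap exons of an antisense gene, and since no source used here gives the strand setting of the counting, reads of either gene and its antisense partner cannot be told apart. The representative transcript is longest for TFRC (5012 nt) and YWHAZ (5011 nt) and shortest for HPRT1 (1395 nt), and the coding part of PPIA spans only 498 nt.

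Summed over genes, ONT libraries held 81467393 to 116497461 counts. Illumina libraries held 33362018 to 40200473, except HCC827 replicate 2 with 10020699, and PacBio libraries held 37795 to 54339. The PacBio libraries of H1975 replicates 2 and 3 agreed within sampling noise, and so did those of HCC827 replicates 1 and 2 (mean chi-square per gene 0.539 and 0.671, against 1.30 to 4.56 for the other pairs of those groups), so each such pair was summed and counted as 1 sample, which leaves 2 PacBio samples per line. The epithelial markers EPCAM, KRT8, KRT18, KRT19 and CDH1 were detected in both lines on all platforms, from 217 to 3434 CPM in Illumina group means. Of 15 immune, endothelial and fibroblast markers, 3 exceeded 10 CPM in an Illumina group mean: the macrophage marker CD68 (66.7 in H1975 and 123 in HCC827) and the collagens COL1A1 (293 and 12.8) and COL1A2 (68.4 in H1975). PTPRC, CD3E and LYZ, which define leukocytes, and LUM had at most 0.192 CPM in any Illumina or ONT group mean, and the part of these markers in the results was not tested. Levels are given as CPM, counts relative to library size, scaled within each platform by the trimmed mean of M values (TMM), which sets the bulk of genes equal between libraries. The cell lines were compared as HCC827 over H1975 with edgeR's quasi-likelihood test, and a gene is called at a Benjamini-Hochberg adjusted p below 0.05 over all genes tested. The lines differ widely: 74.1% of 25711 genes tested were called in Illumina, 62.7% of 27366 in ONT and 3.34% of 1885 in PacBio.

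Against that background 5 of the 8 reference genes were called between the lines in Illumina, 4 of 8 in ONT, and 0 of the 4 that passed the low-count filter in PacBio. The PacBio count rests on the summed pairs: with libraries kept separate 2 of the 4 were called, beside 206 of 901 genes tested. ACTG1 was higher in HCC827, and TFRC, YWHAZ and ACTB were lower, in both Illumina and ONT. GUSB was called higher in Illumina and not in ONT, and PPIA, TBP and HPRT1 were called in neither with TMM scaling. The median absolute log2 fold of all genes tested was 0.77 in both Illumina and ONT. ACTG1, TFRC and YWHAZ lay above it in both, and the other 5 lay below it in both.

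**Figure D1:**
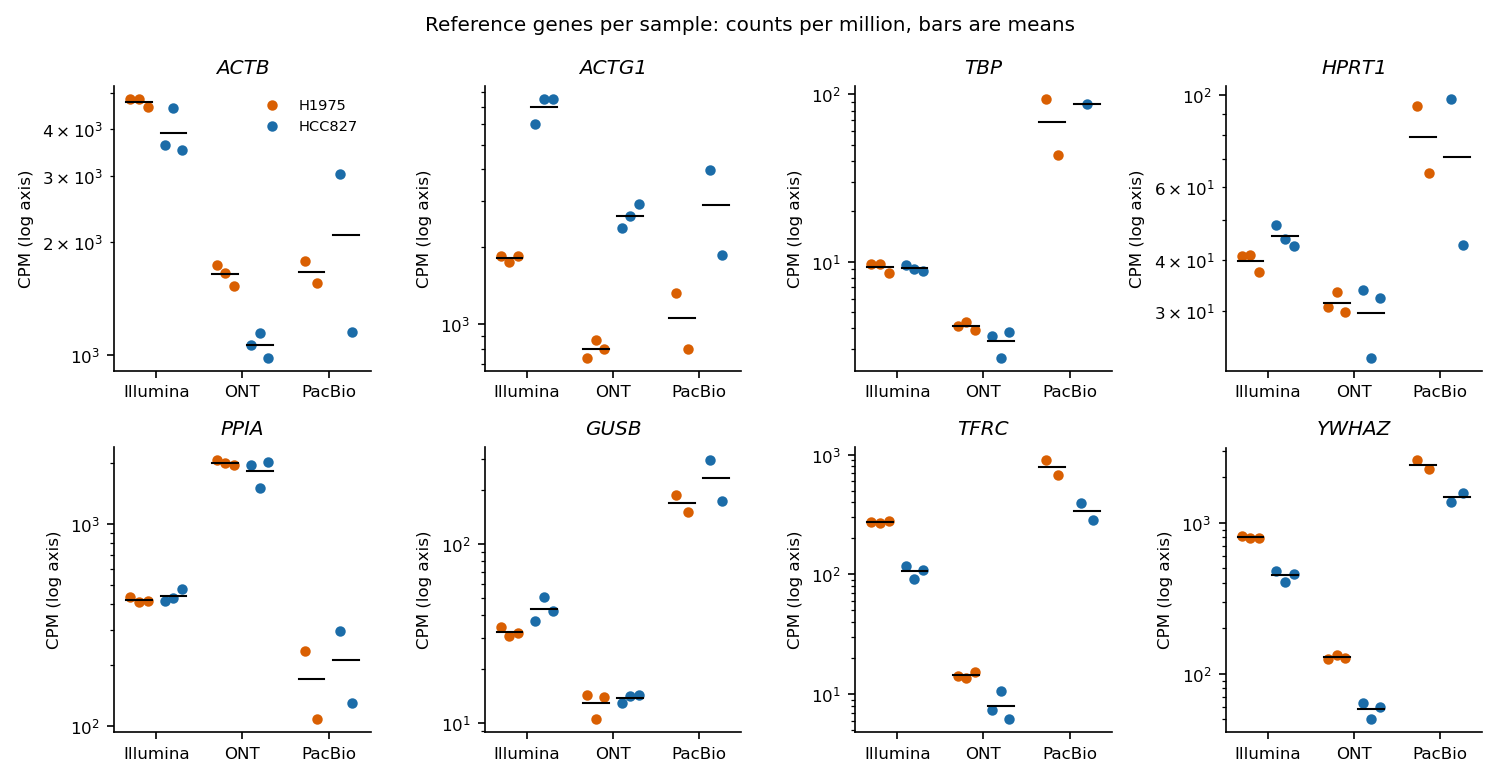
Level of each reference gene in every sample, as CPM on a log axis that differs between panels, for H1975 (orange) and HCC827 (blue). CPM is scaled within each platform. Bars are means of 3 libraries in Illumina and ONT and of 2 samples in PacBio. TBP had 0 counts in 1 PacBio HCC827 sample, which is not drawn and not in its bar. ACTG1 is higher and YWHAZ and TFRC are lower in HCC827 in every Illumina and ONT library.

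The actins changed places between the lines. In Illumina ACTB stood at 4820, 4809 and 4586 CPM in H1975 and at 3629, 4554 and 3521 CPM in HCC827. ACTG1 stood at 1843, 1748 and 1841 CPM in H1975 and at 6025, 7493 and 7525 CPM in HCC827. Neither actin overlapped between the lines, and for ACTB the HCC827 replicate 2 library was close to the H1975 range.
ACTG1 was 3.87-fold higher in HCC827 (log2 fold 1.95 ± 0.12 SE, edgeR adjusted p = 2.09e-09), a larger absolute fold than 84.9% of the genes tested. ACTB was 1.22-fold lower (log2 fold -0.28 ± 0.12, adjusted p = 0.0397). The ACTB call was lost when any single H1975 library was left out, with adjusted p from 0.0813 to 0.121, and when HCC827 replicate 3 was (0.0503).

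ONT gave the same directions. ACTB was 1740, 1660 and 1530 CPM in H1975 and 1063, 1146 and 982 CPM in HCC827, a log2 fold of -0.63 ± 0.12 (adjusted p = 0.00071). ACTG1 was 737, 865 and 800 CPM in H1975 and 2355, 2644 and 2921 CPM in HCC827, a log2 fold of 1.72 ± 0.13 (adjusted p = 1.13e-06). The ranges of the lines were apart for both genes.
As a share of the summed actin level, ACTG1 made up 27.7% ± 0.99 (SD, n = 3) in H1975 and 64.2% ± 3.36 in HCC827 in Illumina, and 32.8% ± 2.61 and 71.2% ± 3.20 in ONT. Their transcripts have similar lengths (1812 nt for ACTB and 1919 nt for ACTG1), so the share does not rest on length. The summed level was 6549 ± 118 CPM in H1975 and 10920 ± 1203 CPM in HCC827 in Illumina, 1.67-fold higher, and in ONT 2444 ± 102 and 3704 ± 254 CPM, 1.52-fold higher.

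The other actins did not follow ACTG1 as a group. Of 10 further actin and actin-related genes, 9 were tested in Illumina, where 5 were called higher and 3 lower in HCC827 with a median log2 fold of 0.25, against -0.04 for all genes. In ONT 8 were tested, with 1 higher, 4 lower and a median of -0.34 against -0.02. The share of all genes tested that was called was 74.1% in Illumina and 62.7% in ONT. ACTA2, the smooth muscle alpha actin, fell in HCC827 from 8.54 ± 0.72 to 3.35 ± 0.36 CPM in Illumina (log2 fold -1.36) and from 4.82 ± 0.47 to 1.24 ± 0.32 in ONT (-1.95). ACTBL2, a rarely expressed actin, also fell (-2.81 in Illumina and -1.76 in ONT). ACTA1, the skeletal muscle actin, rose in Illumina (0.91) but stayed below 1 CPM. The 5 POTE genes with an actin-like segment close to ACTB had 1 call higher and 2 lower in Illumina, with a median of -0.30, and a median of -0.22 in ONT. POTEE fell from 29.6 ± 1.1 to 24.2 ± 3.8 CPM in Illumina (log2 fold -0.32), while in ONT its mean was 1.22 CPM in H1975 and 1.43 in HCC827. POTEJ was close to it (-0.32 in Illumina), and POTEF rose from 0.54 to 1.27 CPM (1.26) but in ONT had 0.67 CPM in H1975 and 0.54 in HCC827 (-0.31, adjusted p = 0.415).

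TFRC was lower in HCC827 in both platforms. In Illumina it stood at 271, 269 and 279 CPM in H1975 and at 117, 91.5 and 110 CPM in HCC827, which is 2.57-fold lower (log2 fold -1.36 ± 0.11, adjusted p = 3.79e-08). In ONT it stood at 14.2, 13.7 and 15.2 CPM in H1975 and at 7.34, 10.6 and 6.15 CPM in HCC827, which is 1.79-fold lower (-0.84 ± 0.19, adjusted p = 0.00302). The lines did not overlap on either platform, and HCC827 replicate 2 was the lowest of its group in Illumina and the highest in ONT.
Of 11 iron genes tested around TFRC, 6 were called lower and 3 higher in HCC827 in Illumina, and 7 lower and 2 higher in ONT, with median log2 folds of -0.63 and -0.49. Of all genes tested 74.1% were called in Illumina, 9768 lower and 9293 higher, and 62.7% in ONT, 8660 lower and 8503 higher, with medians of -0.04 and -0.02, so the share of iron genes called was not far from that of all genes in Illumina. HFE, which binds the transferrin receptor, fell from 7.28 ± 0.24 to 1.29 ± 0.32 CPM in Illumina (log2 fold -2.60). SLC40A1, the iron exporter ferroportin, fell from 10.3 ± 0.64 to 2.10 ± 0.87 CPM (-2.13). ACO1 rose from 66.1 ± 2.1 to 142 ± 8.2 CPM (1.10). TFR2, the second transferrin receptor, rose from 1.62 ± 0.21 to 5.09 ± 1.24 CPM (1.57). In ONT these 4 genes were called in the same directions (-2.31, -2.26, 1.00 and 0.89).

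YWHAZ was lower in HCC827 with little spread. In Illumina it stood at 817, 792 and 787 CPM in H1975 and at 481, 406 and 457 CPM in HCC827, which is 1.78-fold lower (log2 fold -0.83 ± 0.10, adjusted p = 3.98e-06). In ONT it stood at 126, 134 and 127 CPM in H1975 and at 64.4, 49.8 and 60.3 CPM in HCC827, which is 2.21-fold lower (-1.14 ± 0.14, adjusted p = 3.39e-05). The ranges were far apart on both platforms.
Of the 6 other 14-3-3 genes 4 were called lower and 1 higher in each of Illumina and ONT, with medians of -0.53 and -0.63. Among all genes tested 74.1% were called in Illumina and 62.7% in ONT. YWHAH fell from 136 ± 6.4 to 52.9 ± 1.4 CPM in Illumina (-1.36), and SFN, the epithelial 14-3-3 sigma, from 170 ± 9.4 to 73.6 ± 18.8 CPM (-1.22). YWHAE was the member called higher, from 517 ± 20 to 847 ± 78 CPM (0.71), and its ONT fold of 0.51 turned to -0.05 when libraries were scaled by total counts alone.

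PPIA overlapped between the lines on both platforms. In Illumina it stood at 433, 411 and 416 CPM in H1975 and at 418, 431 and 477 CPM in HCC827, with a log2 fold of 0.07 (95% interval -0.14 to 0.28, adjusted p = 0.505). In ONT it stood at 2056, 1997 and 1954 CPM in H1975 and at 1942, 1510 and 2013 CPM in HCC827, with a log2 fold of -0.14 (-0.42 to 0.15, adjusted p = 0.373). HCC827 replicate 2 was the low ONT library.
Among the other 14 cyclophilins 8 were called lower and 2 higher in both Illumina and ONT, with medians of -0.25 and -0.48. For all genes tested the shares called were 74.1% and 62.7%. PPIH and PPIE rose (1.66 and 1.45 in Illumina, 1.28 and 1.07 in ONT). PPIL3 and NKTR fell (-1.01 each in Illumina, -1.36 and -1.32 in ONT).

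TBP was the scarcest of the 8. In Illumina it stood at 9.63, 9.66 and 8.58 CPM in H1975 and at 9.47, 8.98 and 8.83 CPM in HCC827, with overlapping ranges and a log2 fold of -0.03 (-0.27 to 0.21, adjusted p = 0.825). In ONT it stood at 4.12, 4.36 and 3.90 CPM in H1975 and at 3.57, 2.65 and 3.78 CPM in HCC827, where every H1975 library was above every HCC827 library but the fold missed the threshold (-0.31, interval -0.69 to 0.07, adjusted p = 0.142).
Of its 15 partners and relatives in TFIID, the factor through which TBP is placed at promoters, 3 were called higher and 4 lower in Illumina, with a median of -0.01, and 3 higher and 6 lower in ONT, with a median of -0.33. The shares called among all genes tested were 74.1% in Illumina and 62.7% in ONT. TAF2 and TAF3 fell (-1.37 and -1.09 in Illumina, -0.86 and -0.79 in ONT). TAF6 and TAF10 rose (0.94 and 0.57 in Illumina, 0.50 for both in ONT), but the ONT folds of these 2 turned to -0.06 and -0.05 under scaling by total counts.

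HPRT1 was at 40.7, 41.1 and 37.2 CPM in H1975 and at 48.6, 44.9 and 43.2 CPM in HCC827 in Illumina. The ranges did not overlap, yet the log2 fold of 0.20 (0.00 to 0.40) had an adjusted p of 0.0655 in edgeR. HPRT1 was called higher when the HCC827 Illumina replicate 2 library was left out (0.23, edgeR adjusted p = 0.0426). In ONT it was at 30.7, 33.4 and 29.8 CPM in H1975 and at 33.8, 23.1 and 32.2 CPM in HCC827, with a log2 fold of -0.08 (-0.44 to 0.28, adjusted p = 0.703).
The ONT ranges overlapped, with HCC827 replicate 2 lowest. Of 10 other purine salvage genes 4 were called higher and 4 lower in Illumina, and 4 higher and 3 lower in ONT. Calls covered 74.1% of all genes tested in Illumina and 62.7% in ONT. APRT, the adenine counterpart of HPRT1, rose from 59.8 ± 3.5 to 205 ± 43 CPM in Illumina (1.78), and ADA, adenosine deaminase, rose as well (1.49). Adenosine kinase, ADK, fell from 108 ± 2.0 to 55.3 ± 1.4 CPM (-0.96), and XDH, xanthine dehydrogenase, from 44.4 ± 3.5 to 8.03 ± 0.16 CPM (-2.46).

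GUSB was at 34.5, 30.5 and 31.7 CPM in H1975 and at 36.9, 50.7 and 42.1 CPM in HCC827 in Illumina, without overlap, and was called 1.33-fold higher (log2 fold 0.41 ± 0.11, adjusted p = 0.00531). In ONT it was at 14.3, 10.5 and 13.9 CPM in H1975 and at 12.9, 14.1 and 14.3 CPM in HCC827, with overlap and a log2 fold of 0.10 (-0.25 to 0.44, adjusted p = 0.611). With total counts as the scale the Illumina fold was 0.05 (adjusted p = 0.693).
Of 16 other lysosomal glycosidases 8 were called higher and 2 lower in Illumina and 6 higher and 1 lower in ONT, with medians of 0.28 and 0.27. All genes tested had 74.1% called in Illumina and 62.7% in ONT. HPSE, heparanase, rose from 3.78 ± 0.19 to 12.4 ± 1.4 CPM in Illumina (1.68) and GAA, acid alpha-glucosidase, from 57.6 ± 2.0 to 134 ± 13 CPM (1.22). GLB1, the acid beta-galactosidase, was among those that fell (-0.26). With total counts the list had 4 higher and 6 lower in Illumina, beside 19276 of 25711 genes called.

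**Figure D2:**
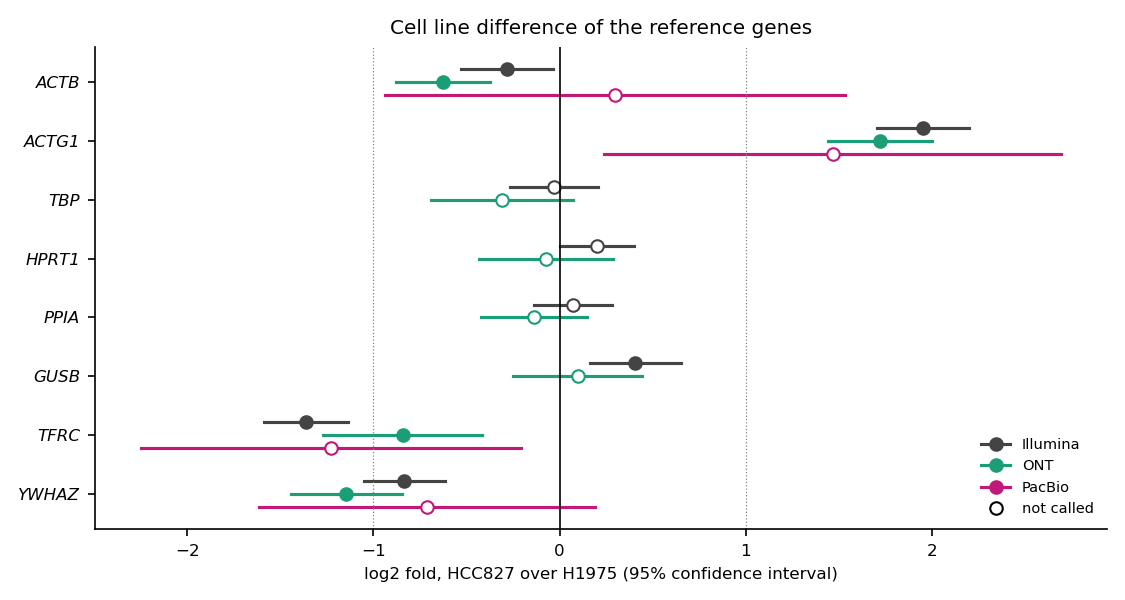
Log2 fold of each reference gene between the lines, HCC827 over H1975, with 95% confidence intervals from edgeR. Filled points are called, open points are not, and dotted lines mark 2-fold; genes absent from a platform did not pass its low-count filter. ACTG1 lies right of zero and TFRC and YWHAZ left of it on all 3 platforms.

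In PacBio 4 of the 8 genes had too few counts to be tested between the lines. Over the 3 libraries of each line, YWHAZ had 160 counts in H1975 and 100 in HCC827, ACTB had 110 and 115, ACTG1 65 and 166, and TFRC 50 and 21. GUSB had 11 and 14, PPIA 10 and 12, HPRT1 5 and 4, and TBP 4 and 4. With totals of 144651 and 133044 counts, the ratio of HCC827 to H1975 was 2.78 for ACTG1 (exact 95% interval 2.07 to 3.76), 0.457 for TFRC (0.261 to 0.774) and 0.680 for YWHAZ (0.524 to 0.878). These intervals cover counting error only.
ACTG1, TFRC and YWHAZ thus pointed as in the deeper platforms, and ACTB pointed up (1.14, 0.868 to 1.49). In the fit over samples 0 of the 4 genes tested were called by edgeR, DESeq2 or limma-voom, and 2 had an unadjusted p below 0.05 in edgeR: ACTG1 (0.0252) and TFRC (0.0247). ACTG1 had a log2 fold of 1.47 ± 0.52 (adjusted p = 0.172), TFRC -1.23 ± 0.44 (0.168), YWHAZ -0.71 ± 0.39 (0.322) and ACTB 0.30 ± 0.53 (0.777). With libraries kept separate edgeR called ACTG1 (1.51, adjusted p = 0.0275) and TFRC (-1.11, 0.0332), beside 206 of 901 genes tested. Neither was called when the replicate number was added to that as a block (0.08 and 0.102). ACTB counts were 32, 21 and 62 in the HCC827 libraries, and without replicate 3, whose header alone names poly(A), the ACTB fold was -0.45. The counting interval of the ratio ran from 0.517 to 3.37 for PPIA, 0.584 to 3.37 for GUSB, 0.173 to 4.04 for HPRT1 and 0.203 to 5.84 for TBP. Each of these intervals includes 1, so no difference was detectable for these 4 genes at this depth.

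The folds above hold relative to the bulk of genes, as TMM sets it. When libraries were scaled by total counts alone, the median fold of all genes moved from -0.04 to -0.38 in Illumina and from -0.02 to -0.57 in ONT, and every reference gene moved with it. When the scale came from the summed counts of 11 other reference genes (below), the median was -0.47 in Illumina and -0.02 in ONT. In that sum the most abundant genes weigh most. GPI, the highest of the 11 in HCC827, rose from 179.1 ± 7.8 to 481.5 ± 129.3 CPM in Illumina. Of the 11 genes 6 were called higher and 3 lower there, with a median log2 fold of 0.33 under TMM. The part of GPI in this scale was not tested. ACTG1 stayed higher (1.49 to 1.95 in Illumina, 1.17 to 1.72 in ONT), and TFRC, YWHAZ and ACTB stayed lower, under all 3 scalings in both platforms. PPIA in Illumina went from 0.07 to -0.29 with total counts and -0.38 with the 11 genes, and was then called lower in HCC827 (adjusted p = 0.00986 and 0.00447). TBP went from -0.03 to -0.38 and -0.46 and was called lower as well (0.0127 and 0.0103). HPRT1 went from 0.20 to -0.15 and -0.24 (0.218 and 0.109), and GUSB from 0.41 to 0.05 and -0.05, where its call was lost (0.693 and 0.702). With total counts all 8 genes were called in ONT, beside 18120 of 27366 genes tested. Among the gene families, the Illumina medians of the actins (-0.10 with total counts and -0.20 with the 11 genes), purine salvage genes (-0.25 and -0.34) and lysosomal glycosidases (-0.08 and -0.18) also turned negative, while the cyclophilins, iron genes and 14-3-3 genes kept their sign.

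Ratios between the reference genes do not depend on that choice. In ONT the log2 ratio of HPRT1 to PPIA varied with an SD of 0.09 over the 6 libraries, that of TBP to PPIA with 0.11 and that of TBP to HPRT1 with 0.14. In Illumina the same 3 pairs had the smallest SDs of all 28 pairs, 0.14, 0.12 and 0.13. ACTG1 against TFRC was the widest pair in Illumina, with an SD of 1.83, and ACTG1 against YWHAZ in ONT, with 1.58. ACTB against ACTG1 had 1.23 and 1.30.
The geNorm measure M, the mean of these SDs over the 7 partners of a gene, is lower for a steadier gene. It was lowest for TBP (0.44) in Illumina and for PPIA (0.42) in ONT, and PPIA, TBP and HPRT1 lay between 0.42 and 0.46 on both. ACTB had 0.49 and 0.48, GUSB 0.54 and 0.52, YWHAZ 0.64 and 0.67, TFRC 0.89 and 0.63, and ACTG1 1.22 and 1.21. These values describe 6 libraries and carry no test. The geometric mean of all 8 genes was 235 ± 5.8 CPM in H1975 and 237 ± 3.7 CPM in HCC827 in Illumina, and 97.2 ± 0.84 and 86.2 ± 3.5 CPM in ONT.

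Scaling to 1 gene instead of the bulk would shift all others by that gene's own fold. With ACTG1 as the denominator, the median log2 fold of all genes tested would be -1.99 in Illumina and -1.74 in ONT. With TFRC it would be 1.33 and 0.83, with YWHAZ 0.80 and 1.13, and with ACTB 0.24 and 0.61. With TBP it would be -0.01 and 0.29, with PPIA -0.11 and 0.12, with HPRT1 -0.24 and 0.06, and with GUSB -0.44 and -0.11.

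Other genes used for normalization were compared in the same way, against 74.1% of all genes called in Illumina and 62.7% in ONT. Of 20 further classic references all were tested in Illumina and 16 were called higher and 2 lower in HCC827, with a median log2 fold of 0.92; in ONT 14 were higher and 2 lower, with a median of 0.71. GAPDH, a glycolytic enzyme, rose from 1595 ± 102 to 8343 ± 1995 CPM in Illumina (2.39) and from 1864 ± 50 to 7527 ± 1506 CPM in ONT (2.01). B2M, the light chain of MHC class I, fell (-0.34 in Illumina and -0.69 in ONT), as did TOP1, DNA topoisomerase 1 (-0.26 and -0.55). With total counts the ONT split of this list was 8 higher and 6 lower, with a median of 0.16.
Of 11 genes proposed as uniform from RNA-seq of many tissues, 6 were called higher and 3 lower in Illumina and 4 higher and 4 lower in ONT, with medians of 0.33 and 0.08, which became -0.03 and -0.49 with total counts. These 9 of 11 and 8 of 11 calls lie near the shares for all genes. GPI, another glycolytic enzyme, rose most (1.42 and 1.09), and PSMB2, a proteasome subunit, rose by less (0.69 and 0.39, the latter -0.18 with total counts). SNRPD3, a spliceosomal Sm protein, and EMC7, of the ER membrane complex, fell (-0.38 and -0.37 in Illumina, -0.61 and -0.68 in ONT).

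**Figure D3:**
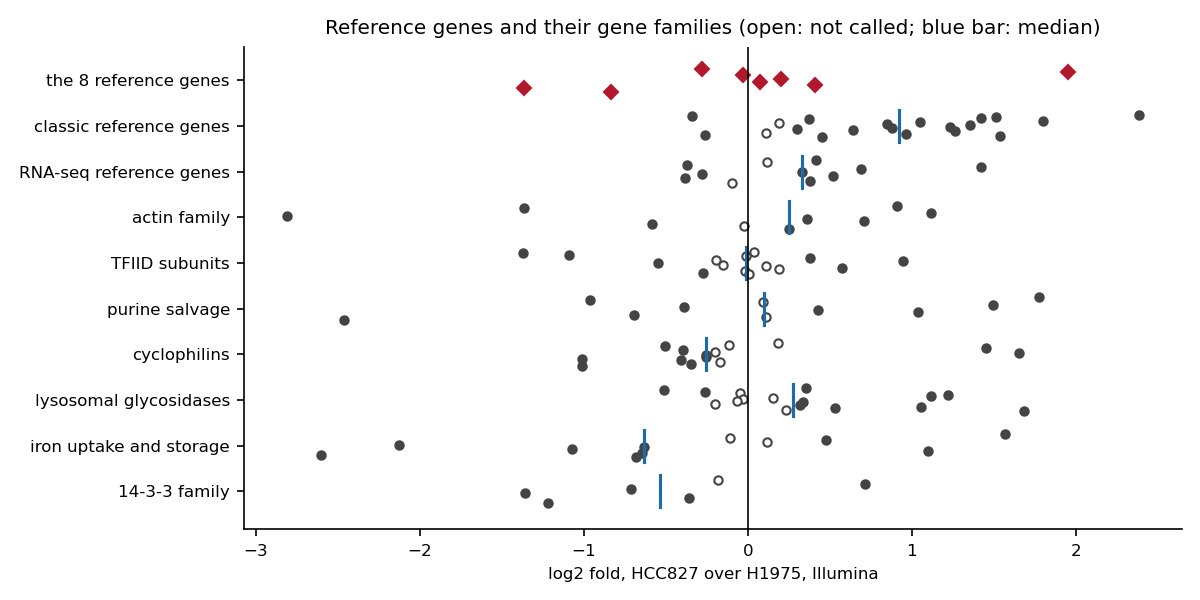
Log2 fold in Illumina, HCC827 over H1975, of the 8 reference genes (red diamonds), 2 lists of other reference genes and the families of the 8. Each point is 1 gene, open points are not called, and the blue bar is the median of a list. The classic reference genes have their median at 0.92, and the iron genes at -0.63.

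Under TMM scaling some genes had a smaller SD than any of the reference genes that could be ranked. Protein-coding genes with at least 10 CPM in every Illumina and ONT group, 4058 in all, were ranked by the SD of log2 CPM over the 12 libraries after the mean of each platform was removed. JPT2 had the smallest SD, 0.06, with 149 ± 1.3 CPM in H1975 and 158 ± 6.2 in HCC827 in Illumina and 28.7 ± 1.4 and 28.1 ± 1.4 in ONT. SP110, ZMAT2, MAT2A, the enzyme that makes S-adenosylmethionine, and UBE2G1, a ubiquitin-conjugating enzyme, followed with 0.07 to 0.08. PPIA ranked 189 with 0.13, HPRT1 488 with 0.17, GUSB 1081 with 0.23 and ACTB 1688 with 0.29. YWHAZ ranked 3190 with 0.56 and ACTG1 3964 with 1.01. TBP and TFRC had fewer than 10 CPM in at least 1 group and were not ranked. The 5 leading genes are the smallest of 4058 SDs and were taken from the same libraries, so their values are a description. The ranking rests on TMM scaling alone.

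For each of the 8, the protein-coding gene with the most similar course was found by the root mean square difference of log2 CPM over the 12 Illumina and ONT libraries, each gene taken relative to its own mean. SNRPD1, an Sm protein, was nearest to PPIA (0.06), FH, fumarate hydratase, to TBP (0.07), and ARPC2, of the Arp2/3 complex, to HPRT1 (0.07). PHB2, prohibitin 2, was nearest to ACTG1 (0.09), FADS2, a fatty acid desaturase, to ACTB (0.12), and ACTR1A, of the dynactin complex, to GUSB (0.13). HIF1A, the hypoxia-inducible factor, was nearest to TFRC (0.12), and the gene ENSG00000285976 to YWHAZ (0.09). These distances include the platform difference of each gene, and many genes lay near: 1158 were within 0.5 of HPRT1 and 58 within 0.5 of TFRC.

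Levels between genes can be compared only per length. In Illumina, as CPM per kilobase of the representative transcript, H1975 had ACTB at 2615, ACTG1 at 944, PPIA at 188, YWHAZ at 159, TFRC at 54.4, HPRT1 at 28.4, GUSB at 14.7 and TBP at 5.00. HCC827 had ACTG1 at 3655, ACTB at 2153, PPIA at 198, YWHAZ at 89.4, HPRT1 at 32.7, TFRC at 21.1, GUSB at 19.7 and TBP at 4.90. TFRC and GUSB in HCC827 did not differ beyond their spread. With the total exon length of each gene in place of the transcript, PPIA fell below YWHAZ in H1975 (62.0 and 93.3) and TFRC below HPRT1 (15.7 and 24.6). These orders therefore depend on the length used. They also leave out counts on same-named pseudogenes. In Illumina those held 57.7% to 60.3% of the joint counts for PPIA, 36.2% to 52.2% for GUSB and 15.1% to 16.5% for YWHAZ.

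The platforms were then compared on the same RNA, with equal weight to both lines and TMM over the 12 libraries of a pair of platforms. Between ONT and Illumina 83.4% of 29395 genes tested were called, and 6 of the 8 reference genes were. PPIA was 12.4-fold higher in ONT relative to the bulk of genes (log2 ratio 3.64 ± 0.09, adjusted p = 8.97e-18) and HPRT1 2.02-fold higher (1.01 ± 0.10, adjusted p = 1.14e-08). TFRC was 5.64-fold lower in ONT (-2.50 ± 0.12, adjusted p = 2.14e-13) and YWHAZ 2.46-fold lower (-1.30 ± 0.08, adjusted p = 2.35e-11). TFRC and YWHAZ have the longest representative transcripts of the 8 and HPRT1 the shortest. PPIA, with the highest ratio, has the third longest (2237 nt, of which 1739 nt are untranslated). Gene counts do not show which transcripts these cells expressed, and a part of length in the ratios was not tested.
ACTB (-0.21 ± 0.08, adjusted p = 0.0179) and ACTG1 (0.20 ± 0.08, 0.026) were near even, and the ACTG1 call was lost with DESeq2 (adjusted p = 0.147). It was also lost when any of 8 single libraries was left out, with adjusted p from 0.0729 to 0.871: H1975 Illumina replicates 1, 2 and 3, H1975 ONT replicates 1 and 2, HCC827 Illumina replicates 1 and 2 and HCC827 ONT replicate 3. The ACTB call was lost without H1975 ONT replicate 3 (adjusted p = 0.072). TBP (0.18, interval -0.04 to 0.40) and GUSB (0.01, -0.20 to 0.22) were not called. With total counts the median ratio of all genes moved from 0.12 to -1.37, and with the 11 other reference genes to -0.93. PPIA then remained higher in ONT (2.14 and 2.58) and TFRC (-3.98 and -3.55), YWHAZ (-2.80 and -2.36) and ACTB (-1.70 and -1.26) lower, but HPRT1 changed to -0.49 and -0.05 and ACTG1 to -1.30 and -0.85.

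**Figure D4:**
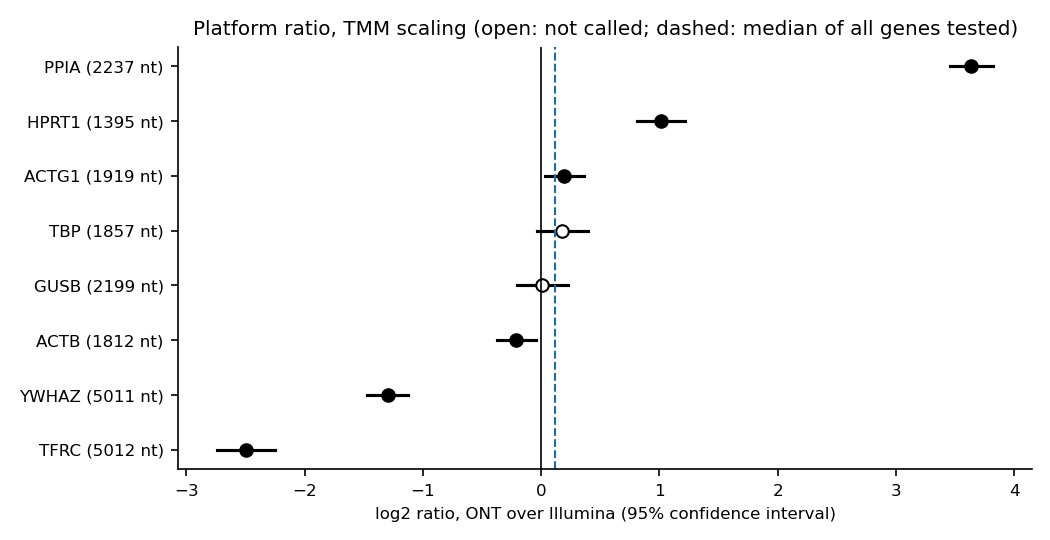
Log2 ratio of ONT over Illumina for each reference gene with its 95% confidence interval, TMM scaling, with the length of the representative transcript in nt beside the symbol. Filled points are called and the dashed line is the median of all genes tested, 0.12. PPIA lies at 3.64 and TFRC at -2.50.

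Whether the fold between the lines differed between ONT and Illumina was tested by their interaction. It was called for 7.16% of genes and for 0 of the 8 by edgeR, and for 0 of the 8 by DESeq2 and limma-voom. TFRC came nearest: its fold was less negative in ONT by 0.68 ± 0.22 (unadjusted p = 0.00664, adjusted p = 0.0753), and it alone of the 8 was below an unadjusted p of 0.05. The median interaction of all genes was 0.11, and 0.38 with the 11-gene scale. Interactions come from a joint fit with TMM over both platforms. They need not equal the gap between the folds given above for each platform alone. The TFRC interaction was called without the low-count filter (0.71, adjusted p = 0.0111), with the 11-gene scale (0.97, 0.0329) and without HCC827 ONT replicate 3 (0.80, 0.0113). GUSB, called in Illumina alone, had an interaction of -0.16 (-0.59 to 0.27, adjusted p = 0.73), so its folds were not shown to differ between platforms. With total counts 4 of the 8 were called, beside 3358 of 29395 genes tested, and the median interaction of all genes was -0.25.

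PacBio ratios were estimated from few counts. In the edgeR fit with TMM the median ratio of all genes was -3.89 against Illumina and -5.42 against ONT. It was -3.42 and -4.76 with total counts, but 0.27 and 0.27 with limma-voom, which also used TMM. The median thus depended on the fit, and the sign of a ratio carries little by itself. Against Illumina 33.5% of 24218 genes were called, and 4 of the 8: PPIA (-3.37 ± 0.24), ACTB (-3.26 ± 0.20), ACTG1 (-3.09 ± 0.20) and HPRT1 (-1.33 ± 0.39). TFRC (-0.46), YWHAZ (-0.32), GUSB (0.34) and TBP (0.71) were not called. With PacBio libraries kept separate, TFRC (-0.62, adjusted p = 0.00471) and YWHAZ (-0.47, 0.00219) were called too, and they were also called when the RNA sample was added as a block (0.00179 and 0.00295).
Against ONT 42.2% of 27984 genes were called, and 5 of the 8: PPIA at -7.60 ± 0.27, ACTG1 at -3.88 ± 0.22, ACTB at -3.64 ± 0.21, HPRT1 at -2.95 ± 0.36 and TFRC at 1.45 ± 0.24. YWHAZ stood at 0.37 (adjusted p = 0.0726), and from 0.31 to 0.95 when single libraries were left out. It was called with PacBio libraries kept separate (0.80, adjusted p = 2.8e-05), with the block added to that (0.79, 4.17e-09) and with DESeq2 (0.70, 5.15e-05). The actins and PPIA were thus low in PacBio relative to TFRC, YWHAZ, GUSB and TBP, an order that does not depend on scaling. The interaction of cell line with platform was called for 0.00826% of genes between PacBio and Illumina and 0.0143% between PacBio and ONT, and for 0 of the 8 in either; at an unadjusted p below 0.05 it picked none of the 8 in the first and ACTB in the second (0.87 ± 0.40, adjusted p = 1).

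The share of counts listed under pseudogenes differed between platforms. In ONT the 89 PPIA pseudogenes together had 3369335 counts against 1073149 for PPIA itself, and in Illumina 121832 against 84808. Pseudogenes made up 75.6% to 76.2% of the joint counts in each ONT library and 57.7% to 60.3% in each Illumina library, so both ranges were narrow and apart. In PacBio 1 count in all 6 libraries fell on a PPIA pseudogene.
The 5 copies shown above held 98.8% of the ONT pseudogene counts and 98.5% of the Illumina ones, and their coding identity to PPIA was 94.6% to 99.6%. PPIAP22, on chromosome 21 (18857779 to 18858276, plus strand) and identical to PPIA at 496 of 498 coding bases, drew 0.963 to 0.989 counts per PPIA count in ONT and 1.08 to 1.20 in Illumina. PPIAP29, on chromosome 6 (24976419 to 24976982, plus strand), drew 0.854 to 0.900 in ONT and 0.163 to 0.188 in Illumina. PPIAP11, on chromosome 5, drew 0.835 to 0.853 in ONT and 0.0223 to 0.0294 in Illumina. PPIAP31 and PPIAP6 drew 0.289 and 0.122 on average in ONT and 0.0764 and 0.0129 in Illumina. The last 3 were chosen after their values were seen.
Adding all pseudogenes to PPIA left its cell line fold at 0.07 in Illumina and -0.11 in ONT and raised its ONT over Illumina ratio from 3.64 to 4.40. No source used here says how the authors' counting placed reads that fit several copies, so PPIA and its copies are uncertain one by one.

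**Figure D5:**
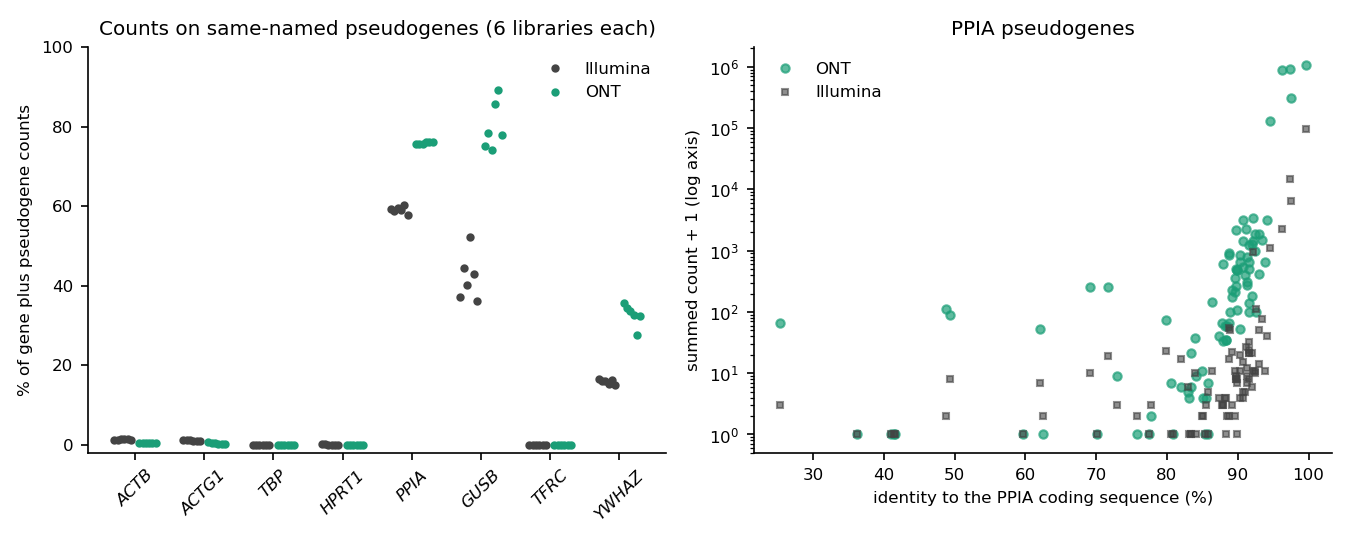
Left, percent of the joint counts of each reference gene and its same-named pseudogenes that fell on the pseudogenes, for 6 Illumina and 6 ONT libraries. Right, summed count plus 1 on a log axis of each PPIA pseudogene against its identity to the PPIA coding sequence. ONT shares for PPIA lie between 75.6% and 76.2%, and the 5 highest ONT points lie at 94.6% identity or above.

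GUSB had 18 same-named pseudogenes, which unlike those of PPIA are mostly copies of genomic segments and match 14.5% to 61.15% of its coding bases. They held 74.0% to 89.1% of the joint counts in ONT and 36.2% to 52.2% in Illumina. GUSBP6, on chromosome 7 (64100305 to 64120544, plus strand), matches 50.3% of them and had 18764 ONT counts and 132 Illumina counts, and GUSBP1, on chromosome 5, matches 27.9% and had 3817 and 2141. The sum of GUSB and its pseudogenes was called in ONT between the lines (0.84, adjusted p = 0.00602) and between ONT and Illumina (1.63, adjusted p = 9.93e-10). In ONT that sum is mostly pseudogene counts, so these folds do not describe GUSB itself. The pseudogenes had 3.0, 3.6 and 2.9 counts per GUSB count in the H1975 ONT libraries and 6.0, 8.2 and 3.5 in those of HCC827.
YWHAZ had 9, with 27.6% to 35.8% of the joint counts in ONT and 15.1% to 16.5% in Illumina, mainly YWHAZP2, YWHAZP10 and YWHAZP3. YWHAZP3 led in Illumina (10474 counts against 2714 in ONT) and YWHAZP2 in ONT (13801 against 6723 in Illumina). With them added YWHAZ stayed lower in HCC827 (-0.84 in Illumina and -1.22 in ONT).
The pseudogenes of the actins had few counts: 11 ACTB pseudogenes held 1.33% to 1.41% in Illumina and 0.463% to 0.590% in ONT, mostly ACTBP2, and 21 ACTG1 pseudogenes held 0.972% to 1.33% and 0.151% to 0.640%. The ACTG1 copies with the most counts were ACTG1P20 (4285) and ACTG1P14 (1691) in Illumina and ACTG1P17 (409) and ACTG1P14 (351) in ONT, and ACTG1P17 was chosen after its values were seen. HPRT1 had 3 pseudogenes with 6 Illumina counts in all and 0 ONT counts, and TBP and TFRC had none by name.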

How the data were processed

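Gene expression was measured in 18 libraries, and groups were taken from the sample labels. The deposited values are raw counts per gene, 1 file per library, without normalization; per the file headers, PacBio counts came from alignments of clustered sequences, so 1 count can represent several reads. Per the submitters' processing notes minimap2 2.17, featureCounts and the GRCh38 build were used. No source used here gives the tool of each platform, the strand setting, the annotation release or how reads fitting several places were treated. Illumina files listed 60617 genes and long-read files 58676 after 76 synthetic spike-in RNAs (sequins) were set aside and 45 second copies of X and Y genes were added to the X copy. GENCODE release 44 gave symbols, coordinates and lengths.

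Tests used edgeR 4.0.16 in R 4.3.3 (quasi-likelihood test with robust dispersion, TMM scaling, genes filtered by filterByExpr, two-sided p adjusted by Benjamini-Hochberg over all genes tested). CPM are counts over the effective library size of the tested genes in the fit of that platform, so CPM levels are not comparable between platforms, and platform ratios come from fits over both. Errors of log2 folds are standard errors, and other errors are SD. The fits were tested on simulated counts. Alternatives were total-count scaling, scaling on 11 other reference genes, DESeq2 1.42.0, limma-voom (limma 3.58.1), no filter on low counts, a replicate block, PacBio libraries kept separate, pseudogenes added, and leaving out each library.

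The series text states that the same RNA samples were used on all platforms, so equal replicate numbers pair libraries across platforms. Deviations from the group mean of same-numbered ONT and Illumina libraries correlated at 0.08 to 0.65, and each library matched its own number best in 6 of 6 cases; with PacBio they were -0.04 to 0.07 in H1975, with the own number best in 2 of 6 cases, and 0.06 to 0.31 in HCC827, with 5 of 6. Between the lines numbers pair nothing.

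The 8 genes and all gene lists were chosen with earlier results of these data known. Beside the 8 genes, the text names from each list up to 2 genes with the largest positive and 2 with the largest negative log2 fold among those called in Illumina, the 5 genes with the smallest SD, the nearest gene of each of the 8, and the 2 same-named pseudogenes with the most counts. A few genes that this rule picks are counted within their lists and are not reported by name here. Coding identity was computed by global alignment with Biopython 1.88. Protein sequences were not used here.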

Additional observations from a re-analysis of the deposited data

Results flagged for a closer look

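Among the genes named from the lists, 3 had a cell line difference that differed between ONT and Illumina by the interaction test in edgeR. That test uses a joint fit of both platforms, so its values need not equal the gap between the separate folds. The ACTG2 log2 fold differed by -2.52 ± 0.63, ONT minus Illumina (adjusted p = 0.0191): this smooth muscle gamma actin went from 0.28 to 0.72 CPM in Illumina (log2 fold 1.12) and from 0.20 to 0.07 CPM in ONT (-1.52), all below 1 CPM. The XDH fold was less negative in ONT by 0.75 ± 0.22 (adjusted p = 0.0415). For PDGFRB, a receptor used as a fibroblast marker, the difference was 6.83 ± 0.53 (adjusted p = 1.21e-07): it fell from 2.49 ± 0.37 CPM in H1975 to 0.14 ± 0.18 in HCC827 in Illumina and rose from 0.63 ± 0.03 to 1.91 ± 0.45 CPM in ONT. The causes were not tested.

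The sequins lie outside the gene comparisons. They took up to 3.71% of all counts in an Illumina library, 1.42% in an ONT library and 0.127% in a PacBio library. In Illumina their share was 1.37% to 1.82% in H1975 and 1.88% to 3.71% in HCC827, without overlap, and in ONT 0.600% to 0.798% and 0.560% to 1.42%.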

How the results depend on the processing

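A call is an adjusted p below 0.05, and a count of calls is taken as kept when it stays within 1.5 times; sign changes below 1 SE of values called in neither setting were not counted. Of 316 recomputed counts of calls 260 were kept, and of 888 recomputed folds of the 8 genes 770 kept direction and side of the threshold, 46 became called, 19 lost the call and 53 reversed. With total-count scaling, HPRT1 (-0.15) and PPIA (-0.29) reversed between the lines in Illumina and GUSB (-0.46) in ONT. For ONT over Illumina, ACTG1 became -1.30, TBP -1.33, HPRT1 -0.49 and GUSB -1.48. For PacBio over Illumina, TFRC became 0.47 and YWHAZ 0.62, and over ONT TBP became 2.96, HPRT1 0.10 and GUSB 2.77. With the scale from 11 other reference genes, HPRT1 (-0.24), PPIA (-0.38) and GUSB (-0.047) reversed between the lines in Illumina. For ONT over Illumina, ACTG1 became -0.85, TBP -0.89, HPRT1 -0.054 and GUSB -1.04. The interaction of ONT with Illumina became 0.11 for ACTB, 0.22 for ACTG1, 0.14 for TBP, 0.15 for HPRT1, 0.23 for PPIA, 0.14 for GUSB and 0.12 for YWHAZ. For PacBio over Illumina, TFRC became 0.50 and YWHAZ 0.64, and over ONT TBP became 2.57 and GUSB 2.36. GUSB for PacBio over ONT also became 0.057 with DESeq2, 0.15 with PacBio libraries kept separate and 0.16 with the replicate block. With pseudogenes added, the GUSB interaction of ONT with Illumina became 0.49, GUSB for PacBio over Illumina -0.46 and YWHAZ for PacBio over ONT -0.21.

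Leaving out 1 library at a time, the ONT cell line fold ranged from -0.17 to 0.10 for HPRT1 and from -0.21 to 0.010 for PPIA, reversing without HCC827 replicate 2, and the PacBio fold of ACTB from -0.45 to 0.50. ONT over Illumina ranged from -0.18 to 0.04 for GUSB and from -0.016 to 0.26 for TBP, and PacBio over ONT from -0.40 to 0.31 for GUSB and from -0.35 to 0.50 for TBP. The count of all genes called between the lines in PacBio ranged from 0 to 365 and that of the reference genes from 0 to 1 (TFRC, without HCC827 replicate 3). The ONT against Illumina interaction ranged from 1300 to 3782 genes and from 0 to 1 reference gene, PacBio against Illumina from 0 to 3 genes and PacBio against ONT from 0 to 5.

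Genes called between the lines in PacBio were 63 of 1885 tested in edgeR, 15 with DESeq2 and 34 with limma-voom. With the 11-gene scale they were 0 (351 at an unadjusted p below 0.05). Without the low-count filter 475 of 14810 genes tested were called. With libraries kept separate 206 of 901 genes tested were called, and 2 of the 4 reference genes tested, ACTG1 and TFRC. With total counts 8 of the 8 were called in ONT, beside 18120 of 27366 genes tested. The ONT against Illumina interaction then gave 3358 of 29395 genes and 4 of the 8. That interaction gave 3274 genes and 1 of the 8 with the 11-gene scale, and 3126 of 48072 genes and 1 of the 8 without the filter. PacBio against Illumina gave 2 interaction calls, which became 56 with DESeq2, 4 with libraries kept separate, 2439 with limma-voom, 13 without the filter, 30 with the replicate block and 1 with the 11-gene scale. PacBio against ONT gave 4, which became 81 with DESeq2, 0 with total counts (1352 at an unadjusted p below 0.05), 2386 with limma-voom, 17 without the filter, 99 with the replicate block and 9 with the 11-gene scale. With limma-voom PacBio over Illumina gave 16791 calls and over ONT 20708. The replicate block changed no call of the 8 between ONT and Illumina; in fits with PacBio it was combined with libraries kept separate.

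Scaling also moved the split of calls. In Illumina 9293 genes were higher and 9768 lower in HCC827 with TMM, 6503 and 12773 with total counts, and 5683 and 13217 with the 11-gene scale. In ONT 8503 and 8660 became 4333 and 13787 with total counts. ONT over Illumina moved from 12995 and 11506 to 6584 and 19171 with total counts and 8034 and 17133 with the 11-gene scale. Their interaction moved from 1478 and 627 to 697 and 2661 with total counts, 2887 and 387 with the 11-gene scale and 1390 and 928 with DESeq2. PacBio over Illumina moved from 1779 and 6346 to 3839 and 2677 with total counts, and PacBio over ONT from 2348 and 9458 to 7823 and 2412. The causes were not tested. PacBio depth limits all its values: 4 of the 8 genes had at most 25 counts in all.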
